A study of Mus musculus with 2 samples.

Results

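Expression of 10 genes of the Wnt pathway was followed while primed mouse epiblast stem cells were brought back toward the naive state. The genes were the ligands Wnt8a and Wnt3, the secreted antagonists Dkk1 and Sfrp1, the receptor Fzd10, the pathway amplifier Rspo2, the nuclear factors Lef1 and Tcf7l1, and the feedback targets Axin2 and Sp5. They were taken by symbol from a single-cell RNA-seq table of 33963 genes, and all 10 symbols had a row. The 5 tagged populations, each 1 sample without replicates, had been pooled in 1 cDNA library. Naive cells were the embryonic stem cell line Rex1-GFP, which carries a GFP reporter of the naive gene Zfp42 (also called Rex1). Primed cells were the epiblast stem cell line Oct4GIP, kept with FGF2 and Activin A and carrying a GFP and puromycin resistance reporter of Pou5f1 (Oct4). Primed cells on mouse embryonic fibroblast feeders were then given the AMPK activator AICAR together with leukemia inhibitory factor (LIF), and were collected after 8 days (d8) or 16 days (d16). Part of the d16 cells was expanded over 10 passages in 2iL (d16+10p), that is LIF with inhibitors of the kinases MEK and GSK3. The labels give the strain 129/Ola for the pool, and each state is represented by a single line. Levels are CPM, counts per 1000000 reads. The d16 cells were divided at 1000 CPM of Dppa5a within a cell into Dppa5a-high and Dppa5a-low cells, Dppa5a being a gene of the naive state. The difference in Dppa5a between these groups follows from that division.

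Wnt ligands bind Frizzled receptors and LRP co-receptors and stop a cytoplasmic complex that holds the kinase GSK3 and Axin from marking β-catenin for destruction. Stabilized β-catenin enters the nucleus, joins the TCF and LEF factors on DNA and switches on target genes, among them Axin2 and Sp5, which in turn dampen the signal. In naive stem cells the pathway is engaged by CHIR99021, a GSK3 inhibitor and one of the inhibitors in 2iL, which relieves repression by Tcf7l1. In the epiblast after implantation, Wnt3 and Wnt8a belong to the signals of the forming primitive streak. The naive and d16+10p cells were thus grown with inhibitors of both GSK3 and MEK. The methods of the study list neither for primed cells or for the d8 and d16 cultures. Medium and state changed together between those groups, and their parts cannot be told apart.

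The table held 17720 cells and 307121033 reads. All of these cells are used here, whereas the study analysed only those that passed its quality check. There were 801 naive-tagged cells of 500 loaded and 1826 primed-tagged cells of 500 loaded, so that both tags exceeded what had been loaded. The d8 tag had 9627 cells of 9000 loaded, the d16 tag 4315 of 9000 (1278 Dppa5a-high and 3037 Dppa5a-low) and the d16+10p tag 1151 of 1000. No cell number was shared between tags. Whether some cells carried the tag of another population was not tested. Only 418 primed-tagged cells (22.9%) and 514 naive-tagged cells (64.2%) lay in the home cluster of their tag, the Pou5f1-high cluster in which that tag was most enriched, beside 886 of the d16+10p cells (77.0%). The primed-tagged cells had 203 CPM of Pou5f1, against 410 in those of the home cluster. Fibroblast markers were also present among them, with Col1a1 at 348 CPM in all primed-tagged cells and 79.8 CPM in the home cluster. Levels are therefore given for all cells of a tag and for home cluster cells. In d16 Dppa5a-high cells 1134 of 1278 lay in the d16 home cluster. Comparisons with home cluster cells limited only the naive, primed and d16+10p tags, and the d8 and d16 groups were used whole. A lower level per cell in a whole tag and fewer expressing cells of a kind within it cannot be told apart from these sums. As a background, each gene was read in the macrophage-like cluster of 940 cells (median 17428 reads per cell), where Wnt8a was at 2.03 CPM, Wnt3 at 4.07, Dkk1 at 5.25, Sp5 at 5.46, Rspo2 at 6.37, Axin2 at 7.44, Lef1 at 8.14, Fzd10 at 9.31, Tcf7l1 at 18 and Sfrp1 at 18.1 CPM. CPM are not corrected for gene length and are compared only within a gene.

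**Figure D1:**
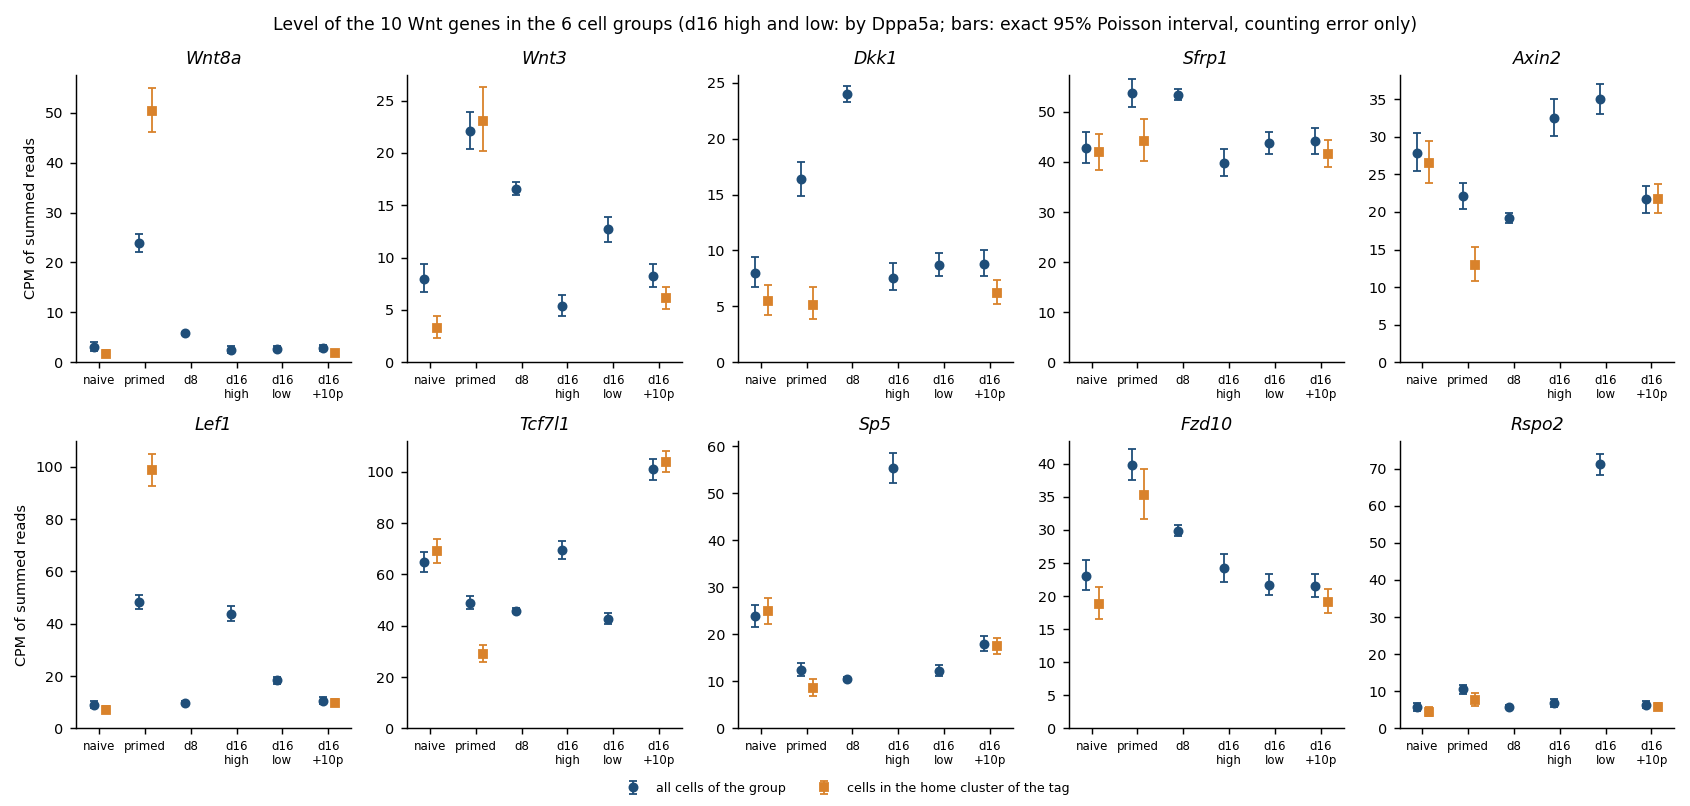
Level of each of the 10 genes in CPM of summed reads (vertical axis, from 0) in the 6 cell groups, for all cells (circles) and for cells in the home cluster of their tag (squares), with exact 95% Poisson intervals. Wnt8a and Lef1 stand highest in primed home cluster cells (50.4 and 98.7 CPM), Sp5 in d16 Dppa5a-high cells (55.4), Rspo2 in d16 Dppa5a-low cells (71.2) and Tcf7l1 in d16+10p cells (101).

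Wnt8a had the widest log2 ratio between primed and naive cells among these genes. Wnt8a, a ligand of the early primitive streak on chromosome 18, had 3.07 CPM in naive and 23.9 in primed cells, then 5.76 at d8, 2.41 in Dppa5a-high and 2.71 in Dppa5a-low cells of d16, and 2.74 in d16+10p cells. Primed cells were high, d8 cells followed, and the intervals of the other 4 groups overlapped from one to the next, at the level of the macrophage-like cells. In the home clusters it had 50.4 CPM in primed (95% Poisson interval 46.1 to 55.0, 500 reads), 1.56 in naive and 1.84 in d16+10p cells. The log2 ratio of primed to naive cells, on the scale of CPM + 1, was 2.61 (95% interval of counting error 2.29 to 2.93) for all cells and 4.33 (3.90 to 4.74) for home cluster cells. A second source was a cluster led by Lefty1 and Lefty2, with 19.7 CPM in its 1447 d8 cells, which held 37.0% of the Wnt8a reads of d8. Of the naive-tagged cells, 55 lay in that cluster and had 20.7 CPM (11.0 to 35.3, 13 reads). They are not read as naive cells, since whether their tag was right was not tested.

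Wnt3, the ligand required for the primitive streak (chr11:103774150-103817957, GRCm38), followed a similar order with smaller steps. It had 7.94 CPM in naive and 22.1 in primed cells, then 16.6 at d8, 5.34 in Dppa5a-high and 12.7 in Dppa5a-low cells of d16, and 8.20 in d16+10p cells. Unlike Wnt8a it stayed near the primed level at d8, with a log2 ratio of d8 to primed of -0.39 (-0.51 to -0.27). Within the d16 culture the Dppa5a-high cells were lower than the Dppa5a-low cells by a log2 ratio of -1.11 (-1.38 to -0.85), and their 5.34 CPM was near the 4.07 CPM of the macrophage-like cells. Its highest cluster was a group of 167 cells led by Krt15 and Tbx4, 88.6% of them from d8, with 113 CPM, against 35.7 CPM in the Lefty1 and Lefty2 cluster. Primed home cluster cells had 23.1 CPM, naive home cluster cells 3.27 CPM and d16+10p home cluster cells 6.09 CPM.

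Dkk1, which blocks the LRP co-receptors (chr19:30545863-30549665), came at d8 mainly from mesendoderm-like cells. It had 8.00 CPM in naive and 16.4 in primed cells, then 24.0 at d8, 7.56 in Dppa5a-high and 8.70 in Dppa5a-low cells of d16, and 8.81 in d16+10p cells. The d8 and primed tags were high, and the intervals of the other 4 overlapped from one to the next. At d8, 684 cells (7.11%) of a mesendoderm-like cluster, marked by Cer1, Lhx1, Eomes, Gsc, Mixl1 and Foxa2, had 307 CPM and held 66.9% of the Dkk1 reads. Among primed-tagged cells, 71 cells (3.89%) in the same cluster had 183 CPM and held 43.6% of the reads. A further 23.9% lay in 438 cells of the Lefty1 and Lefty2 cluster at 18.7 CPM, while the 418 cells of the primed home cluster had 5.14 CPM, close to the 5.25 CPM of the macrophage-like cells. The log2 ratio of d16 Dppa5a-high to primed cells changed sign, from -1.02 (-1.26 to -0.78) with all primed-tagged cells to 0.48 (0.08 to 0.88) with those of the home cluster. In d16 Dppa5a-high cells, 1 cell held 24.2% of the 157 Dkk1 reads.

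Sfrp1, a secreted protein that binds Wnt ligands (chr8:23411502-23449632), differed little between tags. It had 42.7 CPM in naive and 53.7 in primed cells, then 53.4 at d8, 39.8 in Dppa5a-high and 43.8 in Dppa5a-low cells of d16, and 44.1 in d16+10p cells. Among clusters it ranged widely, with 601 CPM in the mesendoderm-like cluster, 79.8 in the fibroblast-like cluster led by Col3a1 and 14.5 in the cluster led by Krt15. The mesendoderm-like cells of d8 alone had 646 CPM and held 63.1% of the Sfrp1 reads of that tag. In the 3 home clusters of naive, primed and d16+10p cells the level was 41.9, 44.2 and 41.5 CPM, with overlapping intervals, above the 18.1 CPM of the macrophage-like cells. Dkk1 and Sfrp1 thus had the same highest cluster.

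Fzd10, a Frizzled receptor (chr5:128600844-128604093), was highest in primed cells. It had 23.1 CPM in naive and 39.8 in primed cells, then 29.9 at d8, 24.2 in Dppa5a-high and 21.7 in Dppa5a-low cells of d16, and 21.5 in d16+10p cells. The primed and d8 tags stood above the others, and the intervals of the other 4 overlapped from one to the next. No log2 ratio of Fzd10 reached 2-fold in any of the 6 comparisons, the widest being 0.87 (0.64 to 1.10) for primed over naive home cluster cells. Across clusters it was highest in the Lefty1 and Lefty2 cluster (79.3 CPM), which also held 39.7% of the primed-tagged reads of Fzd10 in 24.0% of the cells.

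Rspo2, a secreted R-spondin that strengthens Wnt signals by sparing receptors from removal (chr15:43020794-43170826), was highest in d16 Dppa5a-low cells. It had 5.68 CPM in naive and 10.5 in primed cells, then 5.87 at d8, 6.79 in Dppa5a-high and 71.2 in Dppa5a-low cells of d16, and 6.33 in d16+10p cells. The Dppa5a-low group stood far above the 6.37 CPM of the macrophage-like cells and the primed tag above it by little, and the intervals of the other groups overlapped that of the macrophage-like cells. Its 1691 cells in a cluster led by Fabp7, Rfx4 and Gfap had 120 CPM (115 to 125) and held 87.6% of the Rspo2 reads of the group. This cluster was given no cell type name, because too few markers of any list used for naming stood out in it. The 108 primed-tagged cells in that cluster had 114 CPM (92.9 to 139) and held 34.6% of the primed-tagged Rspo2 reads. The 49 d8 cells there had 86.3 CPM (62.4 to 116). By contrast, the 727 Dppa5a-low cells of the fibroblast-like cluster led by Col3a1 had 10.6 CPM (8.35 to 13.3). A neuron-like cluster came second with 62.6 CPM. In d16 Dppa5a-high cells, 70 cells that lay in the d16+10p home cluster had 25.7 CPM (18.8 to 34.3), against 4.15 CPM (3.26 to 5.21) in the 1134 cells of the d16 home cluster.

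Lef1, a TCF and LEF family factor that mostly activates targets with β-catenin (chr3:131110471-131224356), was high in primed cells and again in d16 Dppa5a-high cells. It had 9.10 CPM in naive and 48.2 in primed cells, then 9.85 at d8, 43.9 in Dppa5a-high and 18.3 in Dppa5a-low cells of d16, and 10.5 in d16+10p cells. Naive, d8 and d16+10p cells lay close to the 8.14 CPM of the macrophage-like cells, and their intervals overlapped from one to the next. All primed-tagged cells and d16 Dppa5a-high cells had overlapping intervals, but primed home cluster cells had 98.7 CPM (92.6 to 105), more than 2-fold above d16 Dppa5a-high cells (log2 ratio -1.15, -1.28 to -1.02). The home cluster held 72.9% of the Lef1 reads of the primed tag in 22.9% of its cells. After expansion in 2iL the level of Lef1 was lower than in d16 Dppa5a-high cells by a log2 ratio of -1.97 (-2.15 to -1.78). Reads of 2 overlapping annotated genes, 1 of them antisense, may be counted with Lef1.

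Tcf7l1, the family member that represses targets in naive cells and is relieved by GSK3 inhibition (chr6:72626378-72789254), was highest after expansion in 2iL. It had 64.8 CPM in naive and 49.0 in primed cells, then 45.9 at d8, 69.5 in Dppa5a-high and 42.6 in Dppa5a-low cells of d16, and 101 in d16+10p cells. The d16+10p cells were the highest, and naive and d16 Dppa5a-high cells had overlapping intervals. Primed home cluster cells had 28.9 CPM (25.7 to 32.5), below every tag. Lef1 and Tcf7l1 therefore had log2 ratios of opposite sign between primed and naive home cluster cells, 3.62 (3.35 to 3.91) and -1.23 (-1.42 to -1.04). The log2 ratio of d16+10p to naive cells was 0.63 (0.53 to 0.73), the widest of the 10 genes in that comparison of all cells. A further 6 annotated genes overlap Tcf7l1, and their reads may not be separated. Of these, 2 are annotated as antisense and another also lies on the opposite strand.

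Axin2, a scaffold of the destruction complex and a common readout of Wnt activity (chr11:108920349-108950783), was highest in the d16 cells and lowest in primed home cluster cells. It had 27.9 CPM in naive and 22.1 in primed cells, then 19.2 at d8, 32.5 in Dppa5a-high and 35.0 in Dppa5a-low cells of d16, and 21.7 in d16+10p cells. The intervals of the d16 groups overlapped, as did those of d16 Dppa5a-high and naive cells, and those of d16+10p and all primed-tagged cells. Primed home cluster cells had 12.9 CPM (10.8 to 15.3), below the home cluster cells of the groups grown in 2iL. Those had 26.5 CPM (23.8 to 29.5) in naive and 21.7 CPM (19.8 to 23.7) in d16+10p cells. The log2 ratio of primed to naive home cluster cells was -0.99 (-1.27 to -0.71), just short of 2-fold. Among clusters the range was narrow, from 7.44 CPM in macrophage-like cells to 39.9 CPM in the cluster led by Fabp7. One antisense gene overlaps Axin2.

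Sp5, a zinc finger factor and direct target of β-catenin that can repress other targets (chr2:70474923-70477729), was highest in d16 Dppa5a-high cells. It had 23.9 CPM in naive and 12.5 in primed cells, then 10.5 at d8, 55.4 in Dppa5a-high and 12.3 in Dppa5a-low cells of d16, and 18 in d16+10p cells. The d16 Dppa5a-high cells stood alone, naive and then d16+10p cells came next with separate intervals, and primed and d16 Dppa5a-low cells could not be separated. The log2 ratio of d16 Dppa5a-high to primed cells was 2.06 (1.90 to 2.23) and that of d16+10p to d16 Dppa5a-high cells was -1.57 (-1.72 to -1.42). Both groups grown in 2iL thus had less Sp5 than the d16 Dppa5a-high cells. Those were grown with AICAR and LIF on feeders, without the MEK and GSK3 inhibitors, and these differences cannot be told apart. The 1134 d16 Dppa5a-high cells of the d16 home cluster had 59.6 CPM.

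The promoters of Sp5 and Dkk1 are shown because they were the ones among these genes with 2 matches to a TCF and LEF motif. The motif was searched on both strands in its forms CTTTGAA and also CTTTGAT, together with CTTTGTA and with CTTTGTT, in RefSeq promoters (GRCm38.p6) of 300 bases, of which 250 lie before the start. Of the 10 genes, 7 had a promoter in the table and 4 held a match (Wnt3, after its start, Dkk1, Sp5 and 1 of the 4 promoters of Lef1). Of all 32851 promoters, 16.9% had a match and 1.94% had 2 or more. The first count is by gene and the second by promoter, so they are not directly comparable. The matches do not overlap one another. Capitals mark the matches in the 250 bases before the start of Sp5 (chr2:70474673-70474922, plus strand), 222 and 104 bases before it, the first of them on the other strand, and in a stretch of Dkk1 (chr19:30549588-30549613, minus strand), 117 and 98 bases before its RefSeq start. The GENCODE model of Dkk1 starts 169 bases further upstream, so that this stretch lies within it. A match of letters is a description and not a bound site.
Sp5: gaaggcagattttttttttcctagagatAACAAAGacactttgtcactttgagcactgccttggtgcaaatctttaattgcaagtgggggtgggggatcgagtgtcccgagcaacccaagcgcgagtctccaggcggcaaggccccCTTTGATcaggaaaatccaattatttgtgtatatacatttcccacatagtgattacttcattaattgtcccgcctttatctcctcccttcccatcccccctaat
Dkk1: CTTTGAAatcccatcccggCTTTGTT

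The first comparison asked how the genes differ between primed and naive cells. Wnt8a, Wnt3 and Lef1 were higher in primed cells, by log2 ratios of 2.61, 1.37 (1.12 to 1.61) and 2.28 (2.06 to 2.51), and Sp5 was lower without reaching 2-fold (-0.88, -1.08 to -0.69). A gene was counted when it differed by at least 2-fold and had at least 5 CPM in either group, and with 1 sample per group no test was made. By this count 3 of the 10 genes were past 2-fold, beside 9.14% of 12927 genes, and all 3 were higher in primed cells, beside 3.87%, and 0 were lower, beside 5.28%. The median log2 ratio was 0.77 over the 10 genes and 0.09 over all genes counted, and with home cluster cells 0.38 and 0.01. With home cluster cells the same 3 were higher (background 5.31%), with log2 ratios of 4.33, 2.50 and 3.62, and Tcf7l1 (-1.23) and Sp5 (-1.44, -1.76 to -1.12) were lower (background 8.49%, and 13.8% in either direction). The difference of Dkk1 seen with all cells (0.95, 0.70 to 1.20) was -0.07 (-0.53 to 0.39) with home cluster cells.

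At d8, when few cells had high Pou5f1, the ligand Wnt8a and the factor Lef1 were lower than in primed cells, by log2 ratios of -1.88 (-2.01 to -1.75) and -2.18 (-2.28 to -2.08). These were the 2 genes of the 10 past 2-fold lower, beside 3.22% of 12731 genes, and 0 were higher, beside 3.49% (6.71% in either direction). Against primed home cluster cells the ratios were -2.93 (-3.07 to -2.78) and -3.20 (-3.31 to -3.09), with a background of 8.04%, and Dkk1 was higher by 2.02 (1.68 to 2.37), with a background of 14.6% (22.7% in either direction). Axin2 (-0.19), Tcf7l1 (-0.09), Sp5 (-0.23) and Sfrp1 (-0.01) stayed within 2-fold with all cells. The median log2 ratio was -0.31 over the 10 genes and -0.03 over all genes with all primed-tagged cells, but 0.02 and 0.13 with those of the home cluster.

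Against primed cells, d16 Dppa5a-high cells had less of both ligands and more of the target Sp5. Sp5 was higher by 2.06, and Wnt8a (-2.87, -3.18 to -2.56), Wnt3 (-1.86, -2.12 to -1.61) and Dkk1 (-1.02) were lower, that is 1 higher beside a background of 7.15% and 3 lower beside 5.04% of 13173 genes (12.2% in either direction). The median log2 ratio was -0.49 over the 10 genes and -0.05 over all genes, and with primed home cluster cells -0.15 and 0.10. With primed home cluster cells 6 genes were past 2-fold. Axin2 (1.27, 1.01 to 1.53), Tcf7l1 (1.24, 1.06 to 1.42) and Sp5 (2.56, 2.27 to 2.86) were higher, beside 10.5% of genes, and Wnt8a (-3.91, -4.23 to -3.60), Wnt3 (-1.92, -2.22 to -1.63) and Lef1 (-1.15) were lower, beside 3.71% (14.2% in either direction). Lef1 thus had a level between those of primed and naive home cluster cells, whereas Sp5 exceeded both.

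Within the d16 culture, the Dppa5a-high cells had more Sp5 (log2 ratio 2.08, 1.93 to 2.24) and Lef1 (1.22, 1.08 to 1.36) and less Rspo2 (-3.21, -3.43 to -2.99) and Wnt3 than the Dppa5a-low cells. Those were 2 genes higher and 2 lower, beside backgrounds of 11.3% and 17.1% of 13642 genes (28.4% in either direction), with Wnt8a below 5 CPM in both groups (2.41 and 2.71 CPM). The median log2 ratio over all 10 genes was -0.11, and -0.04 over all genes. Near the dividing line, the 111 cells with 500 to 1000 CPM of Dppa5a had 45.1 CPM of Sp5, 13.8 of Lef1 and 48.7 of Rspo2, and the 184 cells with 1000 to 2000 had 49.1, 38.6 and 11.4 CPM. Cells further out had 11.0 CPM of Sp5, 18.4 of Lef1 and 72.1 of Rspo2 below 500 (2926 cells), and 56.4, 44.8 and 6.01 CPM from 2000 upward (1094 cells). In the 111 cells just below the line Sp5 (34.6 to 57.8) was thus near its level above it, while Lef1 (8.32 to 21.6) was not. No order in time is read from this, and whether these cells are a mixture was not tested. A group of 57 Dppa5a-low cells that lay in the d16 home cluster had 107 CPM of Sp5.

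Expansion in 2iL left 2 of the 10 genes past 2-fold from d16 Dppa5a-high cells, both lower. Lef1 differed by -1.97 (-2.06 with home cluster cells, -2.26 to -1.86) and Sp5 by -1.57 (-1.61 with home cluster cells, -1.77 to -1.45). Genes past 2-fold lower made up 2.08% of 12625 genes with all cells and 2.24% with home cluster cells, and genes past 2-fold higher 0.594% and 0.716%, which gives 2.68% and 2.96% in either direction. Axin2 was lower by less than 2-fold (-0.57, -0.72 to -0.41), and Tcf7l1 was higher by less than 2-fold (0.53, 0.44 to 0.62). Wnt8a stayed below 5 CPM in both groups. The median log2 ratio was -0.09 over the 9 genes above the minimum, 0.02 with Wnt8a included and -0.05 over all genes. With home cluster cells it was -0.25 over the 9 genes and -0.09 over all genes.

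Between d16+10p and naive cells, both grown in 2iL, 0 of the 9 genes above the minimum were past 2-fold in either direction. Wnt8a was below 5 CPM in both groups (2.74 and 3.07 CPM) and could not be counted. The background was 0.923% of 12459 genes higher and 0.835% lower (1.76% in either direction). Smaller differences beyond the counting interval were those of Tcf7l1 (0.63), Sp5 (-0.39, -0.58 to -0.21) and Axin2 (-0.35, -0.52 to -0.18). With home cluster cells 0 were past 2-fold as well (backgrounds 1.11% higher, 1.40% lower and 2.52% in either direction), and Wnt3 (0.73, 0.32 to 1.14) had the widest log2 ratio, at 6.09 against 3.27 CPM. That naive level of Wnt3 was not above the 4.07 CPM (3.21 to 5.09) of macrophage-like cells. Tcf7l1, Sp5, Axin2 and also Lef1 (0.41, 0.09 to 0.74) differed beyond the counting interval with home cluster cells. The median was 0.04 over the 10 genes and -0.01 over all genes, and with home cluster cells 0.15 and 0.03. These lines share neither origin nor reporter, which cannot be told apart from culture history.

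**Figure D2:**
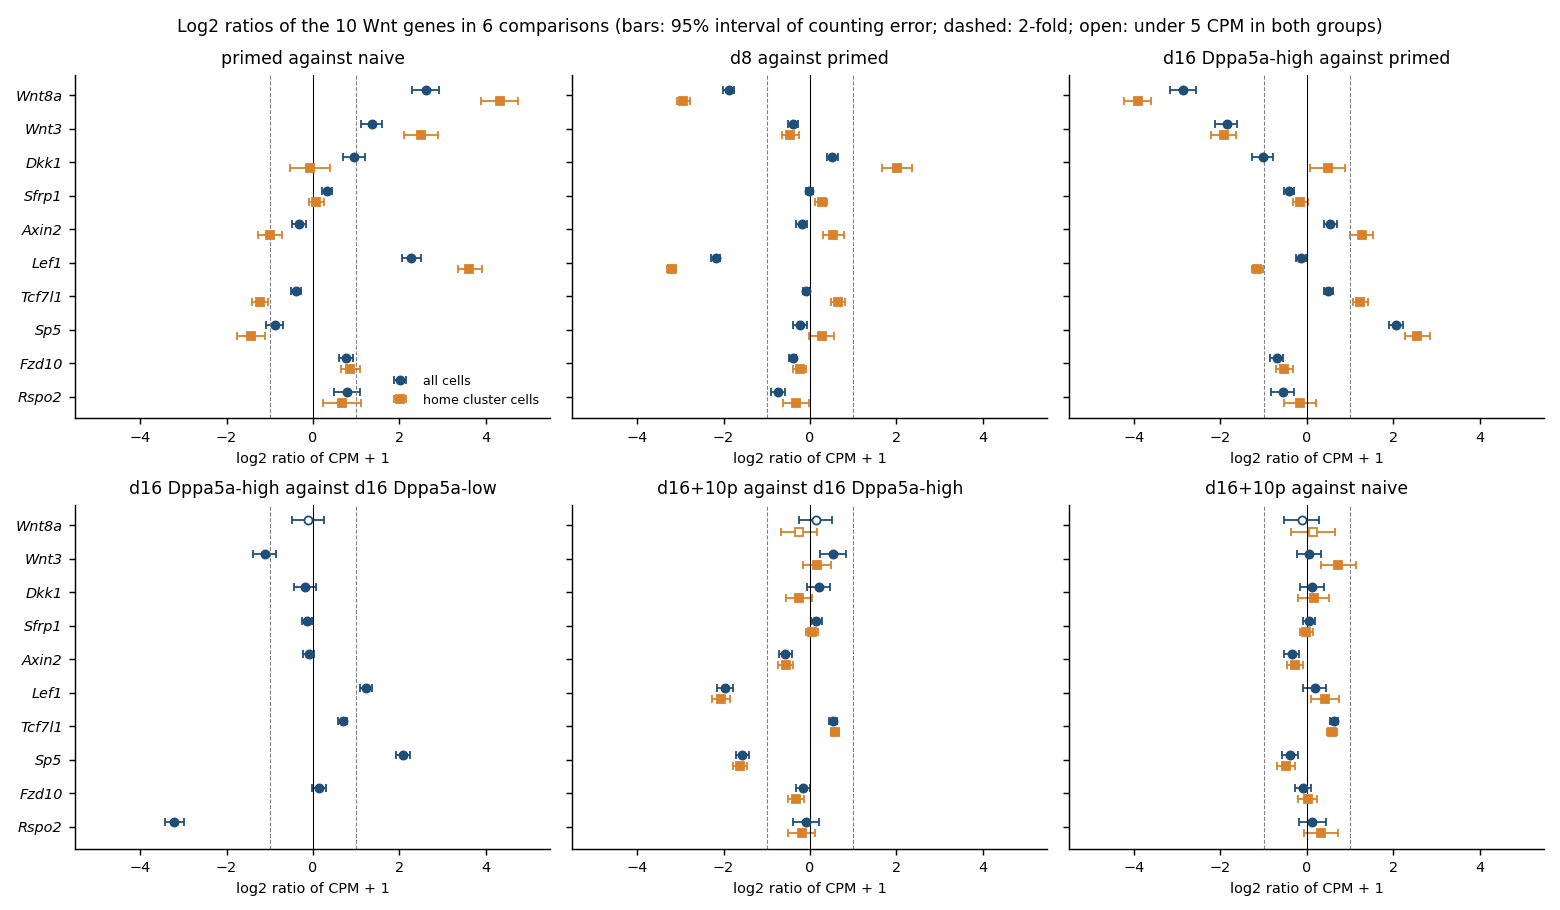
Log2 ratios of CPM + 1 (horizontal axis) of the 10 genes in the 6 comparisons, for all cells (circles) and, where they differ, home cluster cells (squares), with 95% intervals of counting error dashed lines at 2-fold and open symbols for genes under 5 CPM in both groups. Wnt8a and Lef1 lie far right for primed against naive and far left for d8 against primed, Sp5 lies right of 2-fold for d16 Dppa5a-high cells against both primed and Dppa5a-low cells, and no gene passes 2-fold for d16+10p against naive.

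Across the 15 clusters of at least 100 cells, which had been formed without these genes and without the rest of a list of 98 Wnt pathway genes, each of the 10 genes had its own order. Wnt8a and Lef1 shared the primed home cluster as their highest (Lef1 at 96.9 CPM), Dkk1 and Sfrp1 the mesendoderm-like cluster (279 and 601), and Axin2 and Rspo2 the cluster led by Fabp7 (39.9 and 117). Sp5 was highest in the d16 home cluster (60.1), Tcf7l1 in the d16+10p home cluster (98.3), Wnt3 in the Krt15 cluster (113) and Fzd10 in the Lefty1 and Lefty2 cluster (79.3). The highest cluster exceeded the second by 11.4-fold for Dkk1, 7.53-fold for Sfrp1, 3.16-fold for Wnt3, 2.72-fold for Wnt8a and 2.41-fold for Sp5, but only by 1.25-fold for Axin2 and 1.11-fold for Tcf7l1. Clusters of 1 pooled library are described here and not tested.

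**Figure D3:**
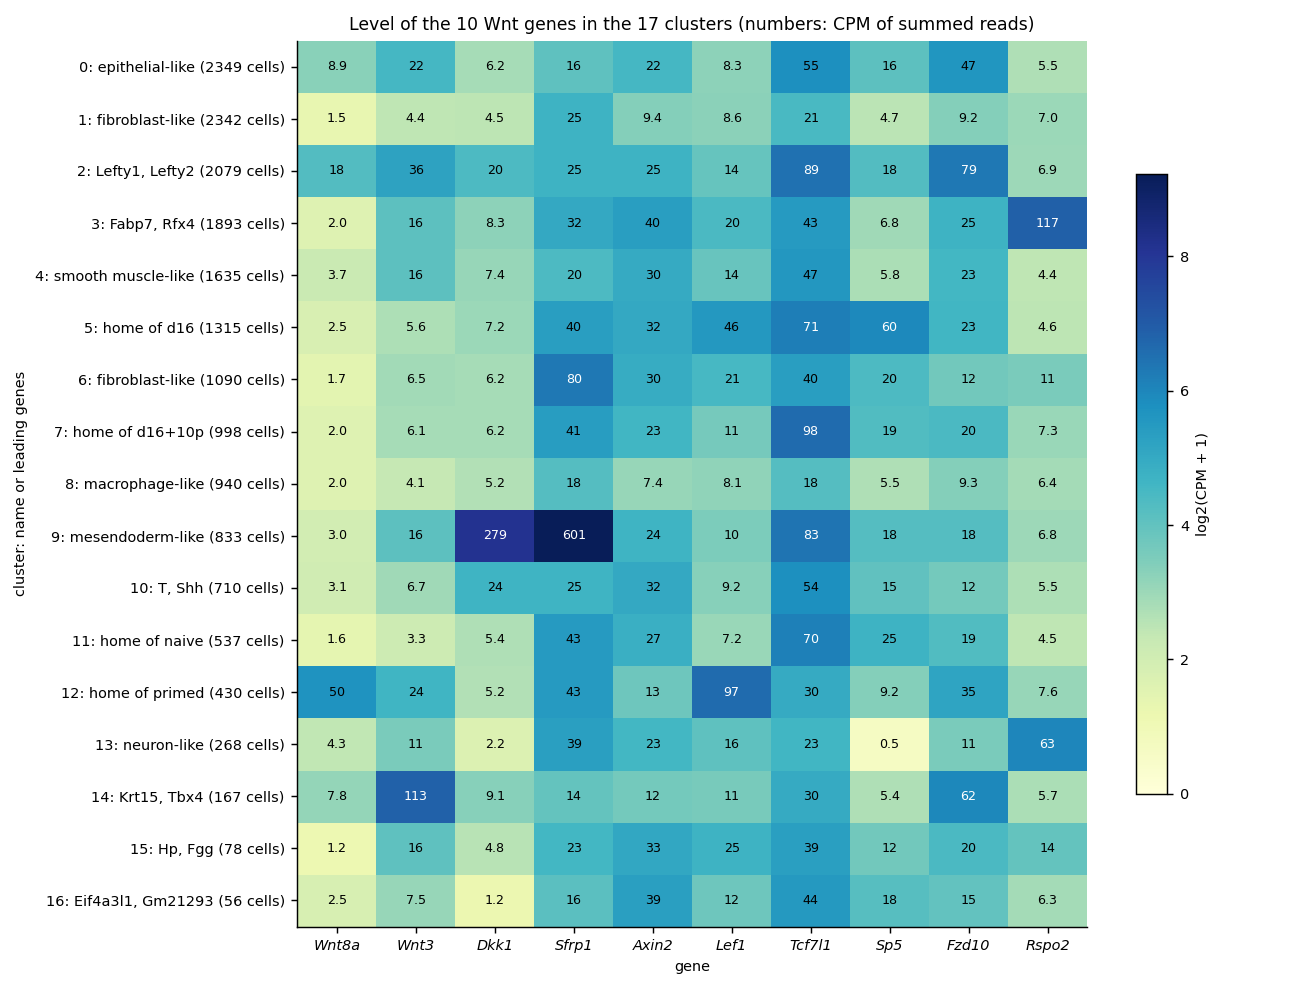
Level of the 10 genes (columns) in the 17 clusters (rows, with name or leading genes and number of cells), coloured by log2(CPM + 1) and printed as CPM. Dkk1 (279 CPM) and Sfrp1 (601 CPM) peak in the mesendoderm-like cluster, Wnt8a and Lef1 (96.9) in the primed home cluster, and Rspo2 (117) in the cluster led by Fabp7.

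Genes with the pattern most like each of the 10 were found by Pearson's r of log2(CPM + 1) over the 15 clusters among 11214 genes, as a description, since clusters share a library and differ in depth. Cacng4 was among the 2 genes most like Rspo2 (r = 0.98) and was highest in the same cluster. Dkk1 was closest to the Nodal, BMP and Wnt antagonist Cer1 (r = 0.93) and to Scel (r = 0.92). For Wnt8a these were Mup6 (r = 0.93) and Gon7 (r = 0.90), and for Sfrp1 S100g (r = 0.89) and Gckr (r = 0.86). Ampd2 was among the 2 genes most like Wnt3 (r = 0.91). Axin2 was closest to Tmem101 (r = 0.91) and Gm28439 (r = 0.89), Tcf7l1 to Arhgef18 (r = 0.92) and Scaf8 (r = 0.90), and Fzd10 to Ttc33 (r = 0.89) and Mtcl1 (r = 0.88). Sp5 was closest to Srfbp1 (r = 0.89) and Topors (r = 0.88), and Lef1, with the lowest values, to Gm48362 (r = 0.83) and Hikeshi (r = 0.83). None of the 10 genes was among the 2 nearest of another.

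The share of cells with a read was compared at 1 depth. Each cell was thinned to 5000 reads, which left out 68 naive, 271 primed, 755 d8, 40 d16 Dppa5a-high, 564 d16 Dppa5a-low and 69 d16+10p cells below that depth. Lef1 had a read in 14.4% of primed cells (exact 95% binomial interval 12.7 to 16.2%; 26.5% without thinning), in 34.1% of primed home cluster cells and in 15.8% of d16 Dppa5a-high cells (13.8 to 17.9%; 30.4% without thinning), against 2.53% of macrophage-like cells (1.57 to 3.84%). Naive cells had 4.37% (3.0 to 6.11%), which overlaps the macrophage-like share. For Sp5 the share was 20.4% of d16 Dppa5a-high cells (18.1 to 22.7%; 37.9% without thinning), 9.41% of naive cells and 7.76% of d16+10p cells, against 3.01% of macrophage-like cells. Wnt8a was seen in 17.6% of primed home cluster cells (14.1 to 21.7%) and in 0.602% of macrophage-like cells, and in the naive, d16 and d16+10p groups its share overlapped the latter. Rspo2 was seen in 16.0% of d16 Dppa5a-low cells (14.5 to 17.5%), and its share elsewhere, from 2.3% to 3.79%, overlapped the 2.65% of macrophage-like cells. Tcf7l1 was the most widely detected, in 34.6% of d16+10p cells (31.7 to 37.5%) and 25.2% of naive cells (22.1 to 28.5%), against 8.30% of macrophage-like cells. Dkk1 shares of 2.67% to 3.0% in naive, both d16 groups and d16+10p cells had intervals that overlapped the macrophage-like 1.44% (0.748 to 2.51%). Sfrp1, whose reads at d8 lay mostly in few cells, was seen in 12.7% of d8 cells against 17.2% of primed cells although their levels were alike, so that no order is read from its share.

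**Figure D4:**
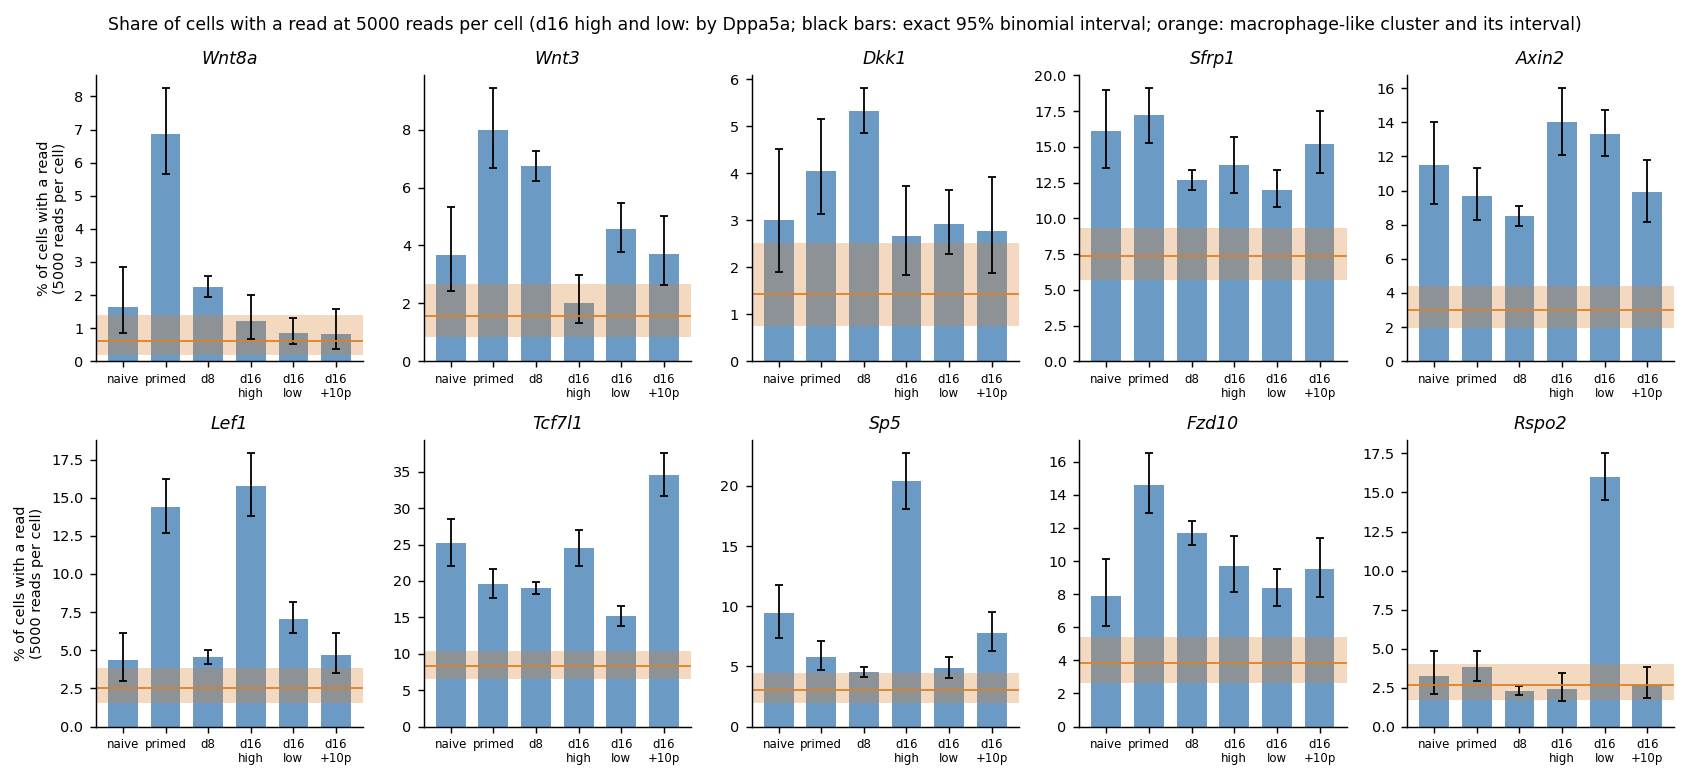
Share of cells with at least 1 read of each gene after thinning to 5000 reads per cell (vertical axis, percent, from 0) in the 6 groups (blue bars), with exact 95% binomial intervals (black) and the share in macrophage-like cells with its interval in orange. Sp5 in d16 Dppa5a-high cells (20.4%), Rspo2 in d16 Dppa5a-low cells (16.0%), Lef1 in primed and d16 Dppa5a-high cells (14.4% and 15.8%) and Wnt8a in primed cells (6.88%) stand above the orange band, while the Rspo2 shares of the other 5 groups lie near it.

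The rest of the pathway was read from the list of 98 genes, which holds these 10, by role. Between primed and naive cells 15 of the 71 genes above the minimum level were past 2-fold higher and 2 lower. These are 21.1% and 2.82%, beside 3.87% and 5.28% of all genes. Higher were, beside Wnt8a, Wnt3 and Lef1, the targets T, a mesoderm factor (102 against 30.4 CPM, log2 ratio 1.71), and Sp8. The antagonists Sfrp2 and Frzb (1.29 and 1.23) and the receptor Fzd2 (1.24) were higher as well. Of the 11 targets measured, 2 were thus past 2-fold higher and 1 lower, with a median log2 ratio of 0.65. Lower were the target Cdx1, a homeobox factor (2.40 against 27.1 CPM, -3.05, -3.33 to -2.76), and the Wnt deacylase Notum (2.26 against 13.3 CPM, -2.13, -2.44 to -1.82), both on the same side as Sp5. With home cluster cells 12 of 66 genes were higher and 5 lower, beside 5.31% and 8.49% of all genes. The antagonists Frzb (4.53 against 3.11 CPM), Dkk2 and Cer1 were then no longer past 2-fold. At d8 the list had 2 genes higher than in primed cells and 2 lower, of 74. Each is 2.70%, below the 3.49% higher and 3.22% lower of all genes. They were the ligand Wnt7b (1.04) and the adhesion receptor Cd44 (1.39) beside Wnt8a and Lef1. Against primed home cluster cells the count was 14 of 73 higher and 3 lower, beside 14.6% and 8.04% of all genes. The higher ones included 5 of the 10 ligands measured (Wnt4, Wnt6, Wnt7b, Wnt9a and Wnt10b) and the antagonists Dkk1, Dkk2, Frzb and Cer1.

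In d16 Dppa5a-high cells 4 of 71 genes of the list were higher than in primed cells and 14 lower. These are 5.63% and 19.7%, beside 7.15% and 5.04% of all genes, so that the share higher was below the background. The 4 were Sp5, Cdx1 (46.3 against 2.40 CPM, 3.80, 3.53 to 4.06), Notum (7.89 against 2.26 CPM, 1.45) and Porcn, the acyltransferase that lipidates Wnt ligands (22.0 against 5.63 CPM, 1.79, 1.56 to 2.03). T (-2.20), Fzd2 (-1.66), Dkk2 (-1.52) and Cer1 (-1.41) had the widest ratios in the other direction beside Wnt8a and Wnt3. Of the 11 targets measured, Sp5 and Cdx1 were past 2-fold higher and T and Sp8 lower, with a median log2 ratio of -0.69. With primed home cluster cells, 6 of 66 were higher and 9 lower, beside 10.5% and 3.71% of all genes. Dkk2 and Cer1 were no longer among them. Against d16 Dppa5a-low cells 5 of 73 were higher (Notum, Tcf7, Lef1, Sp5 and Cdx1) and 31 lower. These are 6.85% and 42.5%, beside 11.3% and 17.1% of all genes. All 7 ligands measured were among the lower ones. The antagonists Wif1 (-2.60), Apcdd1 (-2.51), Dkk2 (-2.45) and Dkk3 (-2.31) and the amplifier Rspo2 (-3.21) led that group.

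Expansion in 2iL left 1 gene of the 63 measured higher than in d16 Dppa5a-high cells, Notum (20.5 against 7.89 CPM, 1.27, 1.04 to 1.51). Another 3 were lower, namely Lef1, Sp5 and Cdx1 (9.80 against 46.3 CPM, -2.13, -2.32 to -1.94). Over all genes 0.594% were higher and 2.08% lower. Against naive cells d16+10p cells had more Porcn (18 against 6.73 CPM, 1.30) and Sfrp2 (1.14) and less Cdx1 (-1.38). Every other gene of the 63 was within 2-fold, beside 0.923% higher and 0.835% lower over all genes. The background percentages of these comparisons are those given above for the 10 genes.

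**Figure D5:**
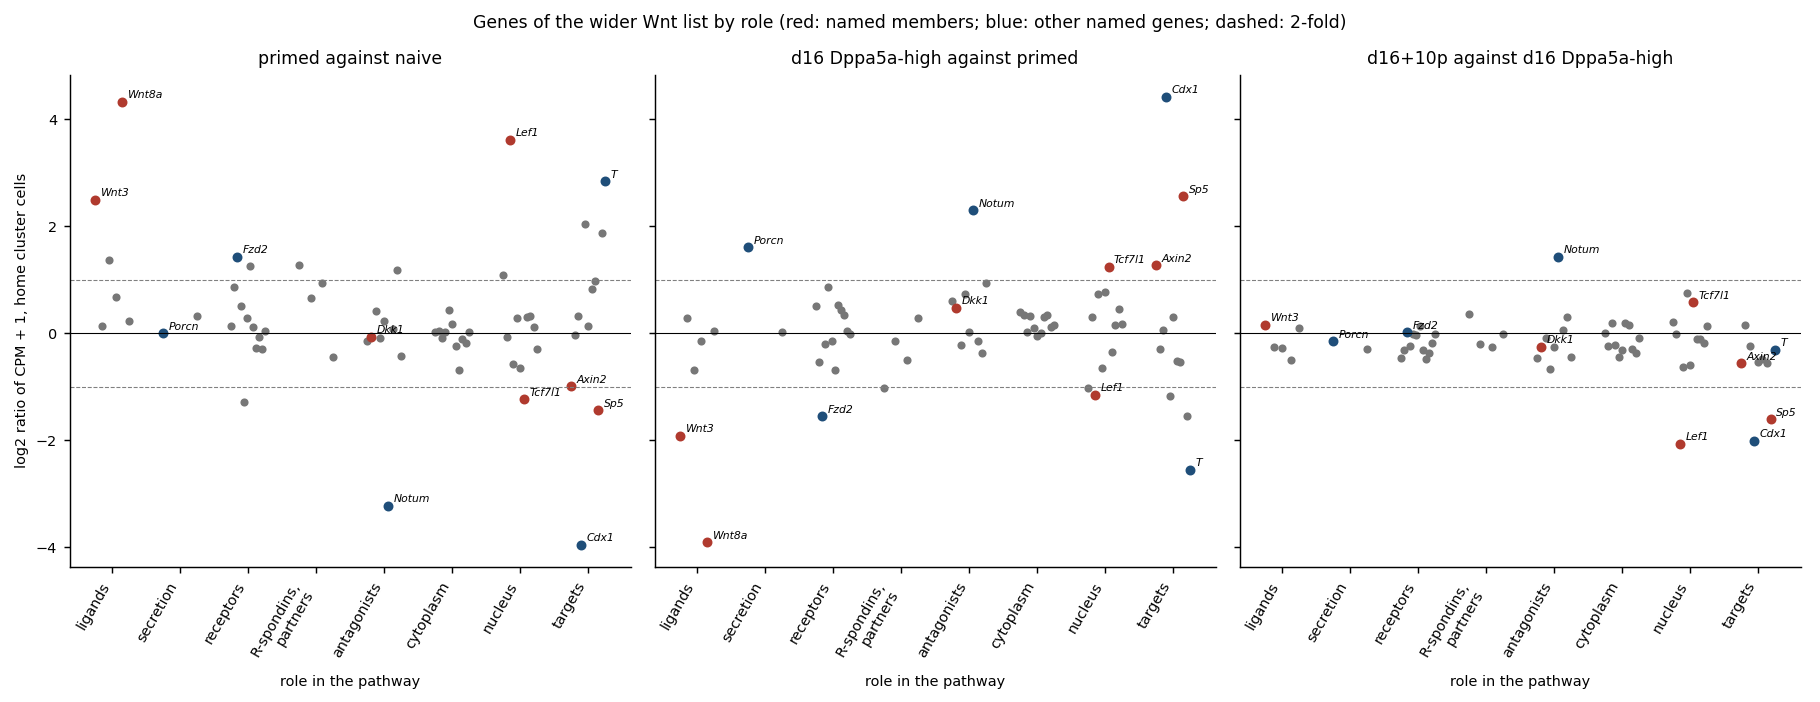
Log2 ratios (vertical axis) of the genes of the wider Wnt list above 5 CPM in either group, arranged by role (horizontal axis), for 3 comparisons. Naive, primed and d16+10p cells are those of their home clusters, and d16 Dppa5a-high cells are all cells of the group. Labelled genes of the 10 are in red, other labelled genes in blue, the rest in grey, with dashed lines at 2-fold. Cdx1, Sp5 and Notum lie below 0 for primed against naive and above it for d16 Dppa5a-high against primed, and for d16+10p against d16 Dppa5a-high Cdx1, Sp5 and Lef1 lie below and Notum above.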

How the data were processed

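The deposited matrix gives counts, as unscaled whole reads of each symbol in each cell. In the study's own description the authors trimmed reads with cutadapt 2.10, mapped them with Bowtie2 2.3.4.1 to Ensembl cDNA and ncRNA of GRCm38.p6 (release 100), counted reads per symbol and cell barcode, dropped barcodes below the inflection of the knee plot, assigned tags and removed likely tag doublets. No molecular identifiers were collapsed, so amplified reads are not independent, and overlapping genes or near-identical copies can share reads. Cells were taken by the tag that begins each column name, per the tag list of the series. No further doublet caller was run.

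Here reads were summed per group and given as CPM with exact 95% Poisson intervals. Log2 ratios used a pseudocount of 1 CPM, which understates ratios of low genes, and intervals from the exact binomial distribution of the 2 summed counts. All intervals cover counting error only and take reads as independent, so amplified reads make them too narrow. Cells (3179 to 111822 reads each) are not replicates, so there is no test. A call needed a 2-fold difference and 5 CPM in 1 group or the other. The ratios were tested on simulated data of independent Poisson counts. Amplified reads were not simulated, so that run cannot show how well the intervals hold when reads are not independent. Clusters came from Seurat 5.3.0 in R 4.3.3 (2000 variable genes less 24 Wnt genes, 56 principal components, 50 neighbours, resolution 0.8), with names only from listed markers, so they can differ from those of the study. Scripts ran in Python 3.11.15 with scipy 1.17.1, and edgeR 4.0.16 gave TMM factors. Positions are from GENCODE M21. Named genes are the 10 members, the widest 4 per direction of the wider list in each comparison, the 2 most alike genes of each member, Dppa5a, Pou5f1 and cluster markers. Some of the most alike genes are not reported here. The members, lists and comparisons were chosen with earlier results of these data known. Alternatives were other cells, filters, pseudocounts, scaling, depth and Dppa5a limits. The tag library was not used here.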

Additional observations from a re-analysis of the deposited data

How the results depend on the processing

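Of 59 alternative counts of genes past 2-fold, 57 stayed within 1.5 times the reported count. The exceptions were 5 genes in place of 3 for primed against naive with home cluster cells, and 2 in place of 4 for d16 Dppa5a-high against Dppa5a-low cells with a pseudocount of 10 CPM. Of 470 alternative log2 ratios, 354 moved by no more than the mean arm of their counting interval, 115 moved by more and 1 past 2-fold reversed, that of Dkk1 for d16 Dppa5a-high against primed cells, at 0.48 with home cluster cells. The home cluster comparison leaves out the 71 primed-tagged mesendoderm-like cells, which had 183 CPM and held 43.6% of the Dkk1 reads of that tag. The ratio of 0.48 rests on 7.56 against 5.14 CPM, beside 5.25 CPM in macrophage-like cells. Of the 157 Dkk1 reads of d16 Dppa5a-high cells, 1 cell held 24.2%. Causes of these shifts were not tested. Over all genes, the number past 2-fold was 854 for d8 against primed with all cells and 2878 with home cluster cells, and a pseudocount of 10 CPM lowered it in each comparison, for example from 1182 to 374 for primed against naive. TMM scaling shifted all log2 ratios of a comparison by at most 0.10. No share of cells with a read stayed within its interval without thinning. Thinning only removes reads from a cell, so higher shares without it follow from that step and are no check of the shares. No paired analysis was possible because each population was 1 tagged sample. With no replicates, a difference larger than its counting interval has no check against the spread between cultures, and levels near those of macrophage-like cells cannot be told from background reads at this depth.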
